A study of Mus musculus with 13 samples.

Results

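The ordinary growth of the limb bud over 1 day, from embryonic day E11.5 to E12.5, was read from the control embryos of a mouse RNA-seq study of Sox9, the transcription factor that starts cartilage formation. The comparison took the 6 control libraries out of 13, with 3 at each stage, and used every gene of the deposited table. Each library came from the limb buds of a separate embryo. The E11.5 controls were Sox9fl/-, with 1 conditional (floxed) allele that still works and 1 null allele, and the E12.5 controls were Sox9fl/fl, with both alleles floxed and no Cre recombinase named. Stage and genotype therefore cannot be told apart in this comparison. The other libraries were 4 Sox9-/- limb buds at E11.5, called Sox9null, and 3 Sox9fl/flPrx1CreER limb buds at E12.5, called Sox9cKO, in which Cre is driven by the limb mesenchyme promoter Prx1. They entered the fit for the spread of each gene and are set beside the controls near the end.

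Between these stages the limb bud is known to turn from a growing, patterned paddle into tissue with laid-out organs. Mesenchymal cells condense and become chondrocytes, which secrete collagens and proteoglycans, while cells at the future joints make GDF5 and muscle precursors that migrated from the somites fuse into contractile fibres. Growth of the bud is driven by a loop between fibroblast growth factors of the apical ectodermal ridge, a thickened rim of ectoderm, and sonic hedgehog from the posterior mesenchyme, with gremlin, a BMP antagonist, linking them. That loop is known to end as the digits form.

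Values are NRPKM, the authors' normalized RPKM (reads per kilobase of gene, scaled to the reads of the library), and differences are of log2(NRPKM + 1), E12.5 minus E11.5, with the standard error (SE) of the model. Of 12880 genes tested, 2794 (21.7%) were called at an adjusted p under 0.05, 2126 (16.5%) higher and 668 (5.19%) lower at E12.5. A difference of at least 1 in size was called for 252 genes (1.96%), of which 217 were higher and 35 lower. Higher genes made up 76.1% of the calls. This share depends on the scaling: with each library centred on its median it was 54.3% and with quantile normalization 55.4%. On the deposited scale the median difference of all genes was 0.06.

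The direction moved with expression level, taken as the mean of log2(NRPKM + 1) over the 6 control libraries and turned back to NRPKM. Among 319 genes with a mean of under 3 NRPKM the median difference was 0.40, and among the 4533 genes from 15 to 31 NRPKM it was 0.06. Each listed gene reaches a group mean of 3, so genes of the lowest range are mostly listed through a group where they are higher. Their median depends on that rule and is not read as an effect of level. Among the 201 genes from 63 to 127 NRPKM it was -0.28, with 78 called lower and 0 higher, and among the 24 genes above that it was -0.50. Under quantile normalization those last medians were 0.02 and 0.08. A lower value at E12.5 of a gene above 63 NRPKM is therefore read against this shift.

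**Figure D1:**
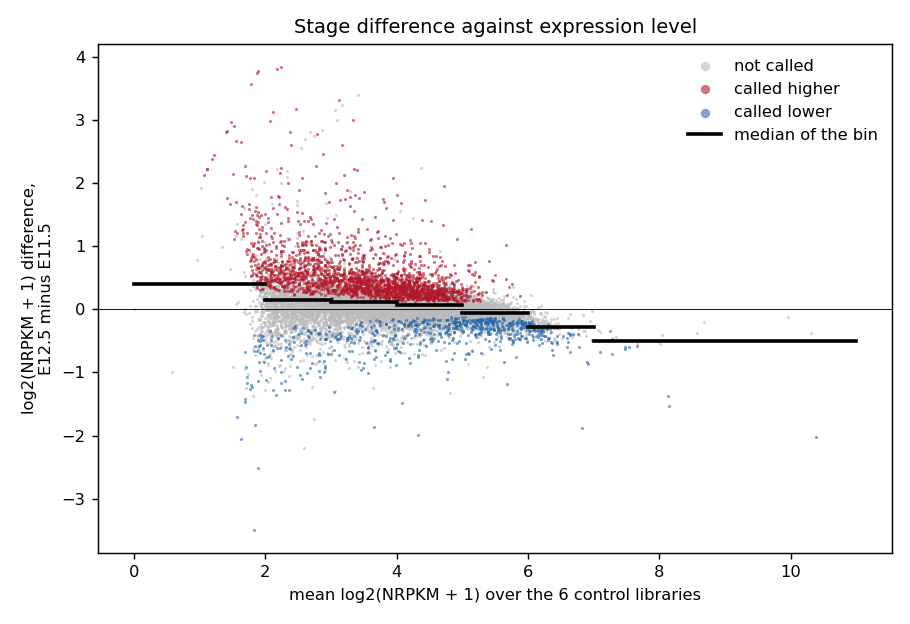
Difference of log2(NRPKM + 1) between the stages (vertical axis) against the mean log2(NRPKM + 1) over the 6 control libraries (horizontal axis), 1 point per gene, with called genes in colour and the median of each level range as a black bar. The median falls from 0.40 in the lowest range to -0.50 in the highest.

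Libraries within a stage were not alike. The mean of the 4 Y-linked genes measured was 20.4 NRPKM in E11.5 control 1, under 0.05 in E11.5 controls 2 and 3, and 22.7 to 23.8 in the 3 E12.5 controls, so that the sex of the embryos differed between the stages. E11.5 controls 1 and 3 correlated at 0.982 across genes, and control 2 with them at 0.956, while the E12.5 controls correlated at 0.982 to 0.988. Clustering of the 7 E11.5 libraries by their correlations put control 2 in a set with Sox9null replicates 1 and 2, and controls 1 and 3 in another with replicates 3 and 4. These sets come from the data and have no label. With a term for them 7132 genes were called. The term was drawn from the same values that it was fitted to, so this count is not an independent check. Against control 2 alone, where E11.5 has 1 library, 1559 were called, and 79 of the 160 calls named by rule and 23 of 56 other calls named here were lost. Sox6, Col9a1, Krt17, Fgfr2, Grem1, Tgfb2, Wif1 and Chrd are among these, and the higher members of the lists fell from 17 to 4 for matrix outside cartilage, from 11 to 6 for tendon and from 19 to 9 for the BMP pathway. None of 18 marker genes of trunk and neural tissue was among the genes analysed, and the limb mesenchyme markers Prrx1, Tbx4, Hoxa13 and Hoxd13 were. Hoxd13 and Hoxa13, which pattern the hand and foot plate, had means of 59.6 and 42.9 NRPKM at E11.5 and 62.1 and 41.0 at E12.5.

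Most measured cartilage matrix genes were higher at E12.5. Of 21 measured genes for cartilage collagens, proteoglycans and their partners, 17 were called higher and 0 lower, with a median difference of 1.19 against 0.06 for all genes. A gene is listed only if a group mean reaches 3 NRPKM. Members under 3 in both E11.5 groups, such as Matn1, Acan, Cytl1, Susd5 and Mia1, are therefore measured only through E12.5, which partly sets this count. Matn1, which encodes the cartilage matrix protein matrilin-1 (chr4:130944385-130955475, GRCm38), was at 0.304, 0.414 and 0.725 NRPKM in the E11.5 controls and at 13.5, 5.07 and 23.1 in the E12.5 controls. All E12.5 values lay above all E11.5 values, and the difference was 3.13 (SE 0.39, adjusted p = 6.6e-04). Acan, the gene of the large proteoglycan aggrecan (chr7:79053483-79115099), was at 0.065, 0.502 and 0.18 NRPKM at E11.5 and at 8.43, 3.25 and 10.5 at E12.5, a difference of 2.64 (SE 0.32, adjusted p = 6.0e-04). Col11a2, a chain of the cartilage fibril collagen XI, went from 2.24, 4.95 and 5.17 to 23.4, 17.4 and 24.6 NRPKM (2.20, SE 0.28). The stages did not overlap in either gene.

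The commonest cartilage collagen gene behaved otherwise. Col2a1, which encodes the main collagen of cartilage fibrils, was at 52.9, 71.3 and 58.2 NRPKM at E11.5 and at 71.9, 66.8 and 73.1 at E12.5, and was not called (difference 0.22, adjusted p = 0.29). Its values were already high at the earlier stage and the 2 stages overlapped. Hapln1, whose product links aggrecan to hyaluronan, was not called either, with means of 13.6 and 13.2 NRPKM. The 3 collagen IX genes lay between these and the genes above: Col9a3 went from a mean of 13.6 to 36.5 NRPKM, Col9a2 from 22.3 to 53.7 and Col9a1 from 29.1 to 44.1. Papss2, which makes the sulphate donor for proteoglycans, rose from 3.98, 8.72 and 7.53 to 36.4, 22.2 and 35.3 NRPKM (2.09, SE 0.27), and Chst11, a chondroitin sulphotransferase, from a mean of 9.39 to 16.2. Leaving out each library in turn gave 15 to 17 higher members of the matrix list, and E11.5 control 2 as the only E11.5 control gave 13.

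The regulators above these matrix genes changed less. Sox9 itself was at 35.8, 49.3 and 37.1 NRPKM in the E11.5 controls, which carry 1 working allele, and at 37.5, 35.2 and 35.9 in the E12.5 controls, which carry 2 (difference -0.15, adjusted p = 0.37). It was at 20.6 to 25.7 NRPKM in Sox9null and at 28.7 to 35.1 in Sox9cKO, below all controls of the same stage in both, and reads from outside the deleted part of the gene may still count towards these values. Sox6, a partner of Sox9 in chondrocytes, rose from 5.58, 12.45 and 8.48 to 22.02, 17.2 and 21.5 NRPKM (1.16, SE 0.24, adjusted p = 0.0056). Sox5, the other partner, was not called (0.29). Sox11, a regulator of progenitor cells, fell from a mean of 88.1 to 60.5 NRPKM (-0.53, SE 0.09), all 3 E12.5 values below all 3 at E11.5. Under quantile normalization its call was lost (adjusted p = 0.061). In all, 6 of 17 chondrogenic transcription factors and signals were called higher and 1 lower. Nkx3-2, a repressor needed for early chondrogenesis, was among the 6 but went from 0.867, 7.88 and 4.02 to 15.2, 11.53 and 13.0 NRPKM, and its call was lost without any 1 of the control libraries other than E11.5 control 2 (adjusted p up to 0.40 over the alternatives).

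Genes of later cartilage and bone were fewer. Of 13 measured genes, 6 were called higher and 1, Ifitm5, lower. Pthlh, the gene of the peptide that holds chondrocytes back from hypertrophy, rose from 0.548, 0.939 and 1.28 to 6.39, 3.36 and 5.75 NRPKM (1.66, SE 0.32, adjusted p = 0.0044). Mef2c, a factor of both muscle and maturing chondrocytes, rose from a mean of 9.07 to 19.2 NRPKM, and Sp7, an osteoblast factor, from 2.95 to 5.35. Without E12.5 control 1 the higher members were 3, and the call of Sp7 was lost.

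Joint genes were higher as well. Of 14 measured joint interzone genes, 10 were called higher and 0 lower (median difference 0.57). Gdf5, the growth factor that marks the future joint (chr2:155941023-155945367), was at 8.71, 11.8 and 12.4 NRPKM at E11.5 and at 39.6, 36.2 and 39.5 at E12.5, a difference of 1.73 (SE 0.20, adjusted p = 5.6e-04). Nog, encoding the BMP antagonist noggin that is needed for joints to form, was at 1.44, 2.74 and 2.30 and then at 16.3, 10.1 and 16.3 NRPKM (2.27, SE 0.22, adjusted p = 1.8e-04). The stages were well apart in both genes, and E12.5 control 2 held the lowest of the later values in each. Erg, a factor of joint cartilage that endothelium also expresses, rose from a mean of 9.57 to 23.4 NRPKM, and Enpp2 from 10.4 to 18.99.

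Muscle genes had the highest median of the tissue lists. Of 30 measured genes of the sarcomere, its assembly and the neuromuscular synapse, 27 were called higher and 0 lower, with a median difference of 1.55. A gene is listed only if a group mean reaches 3 NRPKM. Members under 3 in both E11.5 groups, such as Acta1, Casq2 and Unc45b, are therefore measured only through E12.5. The count and the median are partly set by that rule. The 3 genes not called were Stac3 (0.63), Tpm1 (0.16) and Ryr1 (0.12). Acta1, skeletal muscle actin (chr8:123891769-123894751), was at 0.612, 3.53 and 1.89 NRPKM at E11.5 and at 32.1, 18.4 and 30.8 at E12.5, a difference of 3.31 (SE 0.46, adjusted p = 0.0011). Myh3, the embryonic myosin heavy chain, went from 0.390, 6.10 and 3.57 to 29.1, 19.9 and 35.9 NRPKM (3.00, SE 0.58, adjusted p = 0.0046). Casq2, which stores calcium in the sarcoplasmic reticulum, went from 0.099, 0.938 and 0.580 to 12.1, 7.47 and 13.7 NRPKM (2.98, SE 0.38). In all 3 genes E11.5 control 1 was the lowest of its stage and E12.5 control 2 the lowest of its own. Against E11.5 control 2 alone the call of Myh3 was lost (adjusted p = 0.072). Actc1, the cardiac actin that embryonic skeletal muscle also makes, was already at 5.59, 22.8 and 14.4 NRPKM at E11.5 and reached 52.7, 45.6 and 55.5. Leaving out any 1 library gave 27 or 28 higher members.

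The regulators of muscle formation differed in direction. Pax3, which marks migrating precursors, fell from 5.71, 3.03 and 4.46 to 1.39, 2.62 and 1.22 NRPKM (-0.98, SE 0.26, adjusted p = 0.021), though the call was lost without E11.5 control 1 or 3 or E12.5 control 1 or 3 (adjusted p up to 0.25). Myf5, an early determination factor, was not called (-0.19). Myod1, the later determination factor, rose from a mean of 12.4 to 21.2 NRPKM (0.74, adjusted p = 0.018), a call lost without E11.5 control 1 or E12.5 control 1 or 3. Myog, which drives terminal differentiation, rose from 11.6, 17.2 and 18.2 to 42.7, 37.3 and 41.7 NRPKM (1.34, SE 0.20, adjusted p = 0.0013). Tmem8c and Gm7325, which encode the fusion proteins myomaker and myomixer, went from means of 1.86 and 2.40 to 7.74 and 8.62 NRPKM. Altogether 10 of 20 myogenic regulators were called higher and 1 lower.

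The promoters of some of these genes are printed here because the muscle genes moved together and some hold short motifs known from muscle genes. Each is the 250 bases before the start site, from RefSeq (GRCm38.p6), on the gene's own strand. Capitals mark a CArG box (the site of serum response factor) in Acta1 and Actc1, a MEF2 motif in Casq2, and the E-box CAGCTG (a sequence that MYOD and myogenin can bind) in Acta1 and Mylpf, a fast myosin light chain gene. Matn1 is shown for comparison, with CAGCTG in capitals. The windows are chr8:123894776-123895025 for Acta1, chr2:114052876-114053125 for Actc1, chr3:102086165-102086414 for Casq2, chr7:127211358-127211607 for Mylpf and chr4:130944135-130944384 for Matn1, with Acta1 and Actc1 on the minus strand.
Acta1: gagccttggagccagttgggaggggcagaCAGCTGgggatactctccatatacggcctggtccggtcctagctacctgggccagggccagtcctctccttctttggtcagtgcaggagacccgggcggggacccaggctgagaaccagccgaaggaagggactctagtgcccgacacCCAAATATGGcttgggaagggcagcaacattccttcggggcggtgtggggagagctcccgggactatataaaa
Actc1: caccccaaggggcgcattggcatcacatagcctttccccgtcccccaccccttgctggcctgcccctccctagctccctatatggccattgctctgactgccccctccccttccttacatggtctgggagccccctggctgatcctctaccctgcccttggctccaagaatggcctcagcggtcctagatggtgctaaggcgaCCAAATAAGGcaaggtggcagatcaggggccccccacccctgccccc
Casq2: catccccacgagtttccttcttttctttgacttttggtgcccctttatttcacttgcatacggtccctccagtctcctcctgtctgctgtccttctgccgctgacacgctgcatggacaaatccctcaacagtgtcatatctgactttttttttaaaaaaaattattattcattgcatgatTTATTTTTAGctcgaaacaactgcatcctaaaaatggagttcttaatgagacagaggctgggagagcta
Mylpf: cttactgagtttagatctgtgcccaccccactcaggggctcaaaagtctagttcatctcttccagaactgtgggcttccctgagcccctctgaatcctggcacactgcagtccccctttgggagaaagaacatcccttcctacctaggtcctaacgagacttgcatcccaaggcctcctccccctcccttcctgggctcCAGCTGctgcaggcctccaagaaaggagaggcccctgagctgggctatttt
Matn1: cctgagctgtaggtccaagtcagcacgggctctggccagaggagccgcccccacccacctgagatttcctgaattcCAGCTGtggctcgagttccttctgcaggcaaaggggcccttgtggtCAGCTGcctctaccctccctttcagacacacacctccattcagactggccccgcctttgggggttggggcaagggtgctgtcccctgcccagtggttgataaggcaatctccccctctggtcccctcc

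Of the 30 measured sarcomere genes, 24 had at least 1 RefSeq window, 26 windows in all. CAGCTG, which reads the same on both strands, was present in 13 of the 26, and a CArG box in 3 of them, those of Acta1, Actc1 and Myom1. Over all 32851 windows the shares were 13.0% for CAGCTG and 1.47% for a CArG box. The MEF2 motif was in 1 of the 26 windows, that of Casq2, and in 2.92% of all. TATAAA, searched on both strands, was in 6 of the 26 windows and in 12.4% of all. Among 20 windows of 17 cartilage matrix genes, CAGCTG was in 4, those of Matn1, Acan, Chst11 and Col9a2, and a CArG box in 0. These are matches of letters and were not tested as binding sites.

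**Figure D2:**
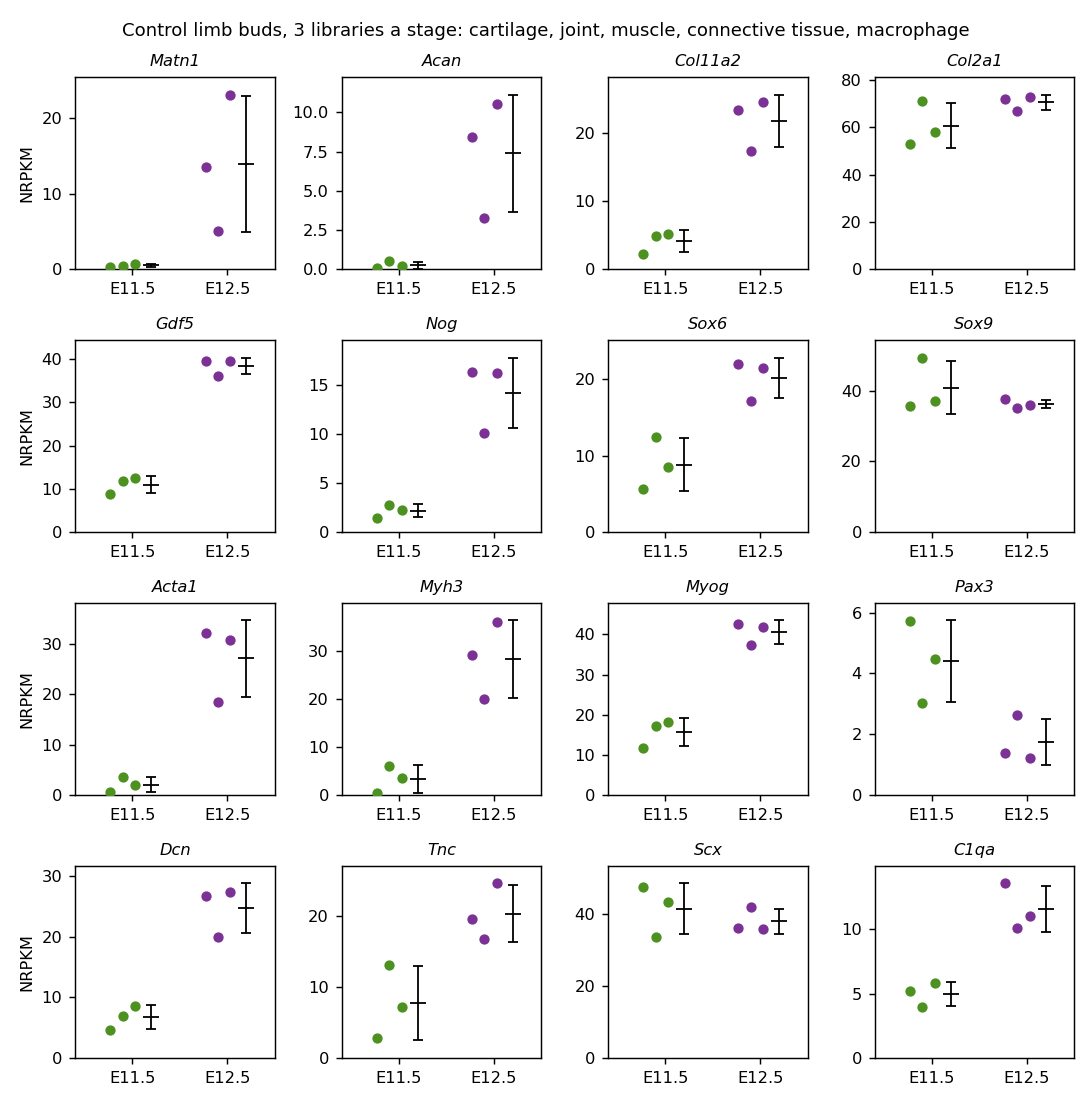
NRPKM (vertical axes, from 0) of 16 genes in the 3 control libraries at E11.5 (green) and the 3 at E12.5 (purple), with the mean and SD of each stage in black. Matn1, Acan and Acta1 are near the floor at E11.5, while Col2a1, Sox9 and Scx overlap between the stages.

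Tendon and loose connective tissue genes rose in part. Of 25 measured, 11 were called higher and 0 lower (median 0.47). Dcn, the small collagen-binding proteoglycan decorin (chr10:97479609-97518143), was at 4.67, 6.94 and 8.56 NRPKM at E11.5 and at 26.6, 19.9 and 27.4 at E12.5, a difference of 1.75 (SE 0.21, adjusted p = 5.9e-04). Its relatives Ogn, Kera and Lum, which belong to the same leucine-rich family, rose from means of 4.30, 9.11 and 19.8 to 16.0, 29.0 and 43.7 NRPKM. Postn, periostin, rose from 4.44 to 12.51 NRPKM. The tendon factor Mkx rose (11.3 to 20.1 NRPKM), whereas Scx, the earliest marker of tendon progenitors, was not called, with means of 41.5 and 38.04 NRPKM and stages that overlapped. Tnc, tenascin-C, had 2.85, 13.2 and 7.20 NRPKM at E11.5 and 19.7, 16.8 and 24.7 at E12.5, and its call was lost without any 1 of the control libraries other than E11.5 control 2 (adjusted p up to 0.45).

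Among 39 matrix genes outside cartilage, 17 were called higher and 3 lower (median 0.26). Col8a2 and Col8a1, the chains of the network collagen VIII, rose from means of 3.28 and 4.33 to 16.7 and 12.6 NRPKM. Lox, which cross-links collagen and elastin, rose from 5.82 to 17.4 NRPKM (1.43, SE 0.22, adjusted p = 0.0014). Fbln1, Col18a1 and Emilin1 fell, by 0.29, 0.25 and 0.18, and the last 2 calls were lost in several of the fits with 1 library left out. The main fibrillar genes Col1a1, Col1a2 and Col3a1 were not called (0.13, -0.24 and -0.12). With E12.5 control 3 left out the higher members were 9.

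Basal keratins of the skin rose, and the ridge signal Fgf8 fell. Of 45 epidermal genes 12 were called higher and 0 lower (median 0.24). Krt15, a keratin of the basal layer, went from 4.55, 3.63 and 4.76 to 17.8, 13.2 and 21.7 NRPKM (1.78, SE 0.22, adjusted p = 6.0e-04). Krt14, another keratin of that layer, went from 21.03, 21.1 and 24.3 to 36.5, 34.3 and 38.6 NRPKM. Krt17 and the hemidesmosome collagen gene Col17a1 rose from means of 10.9 and 5.67 to 22.8 and 12.9 NRPKM. Krt8 and Krt18, keratins of simple epithelium, were not called (-0.49 and -0.08). Fgf8, the fibroblast growth factor that defines the ridge, went from 19.7, 10.8 and 14.2 to 6.96, 9.47 and 5.57 NRPKM (-0.92, SE 0.24, adjusted p = 0.020). It was the only lower call among 22 genes of the ridge list, which overlaps the epidermal list. There 6 were called higher (median 0.15), Krt15, Krt14, Bmp2, Msx2, Wnt3 and Perp, with differences of 0.42 to 1.78, though the calls of Wnt3 and Perp were lost in 5 and 6 of the 6 fits with 1 library left out. After median centring 3 ridge genes were higher and 4 lower, and without E12.5 control 1 the higher members were 2. Sp8, another ridge gene, was not called (-0.28). The Fgf8 call was lost without E11.5 control 1 or E12.5 control 1 or 3 (adjusted p up to 0.24), as was that of Col17a1, and without E12.5 control 1 the higher members of the epidermal list were 6.

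Among genes that pattern the bud more calls were lower than higher. Of 43 measured genes of distal and posterior patterning, 10 were called lower and 5 higher (median -0.20). Without E12.5 control 1 the calls were 6 and 2, and after median centring 20 and 2. Shh, sonic hedgehog (chr5:28456815-28467256), was at 8.52, 2.99 and 5.61 NRPKM at E11.5 and at 0.23, 1.42 and 0.163 at E12.5, a difference of -2.06 (SE 0.48, adjusted p = 0.011). Every E12.5 value was below every E11.5 value, with the highest later value again in E12.5 control 2. Without E12.5 control 1, or against E11.5 control 2 alone, the call was lost (adjusted p up to 0.16). Grem1, gremlin, fell from 26.9, 22.6 and 26.3 to 11.6, 19.3 and 13.5 NRPKM (-0.76, SE 0.17, adjusted p = 0.0099). Among SHH target genes Hhip rose (0.68), while Gli1 and Ptch1 were not called (-0.18 and -0.21). Hhip encodes an inhibitor that binds hedgehog proteins, and its call was lost without E12.5 control 1.

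Genes of FGF signalling in the mesenchyme changed in both directions. Fgf10, the mesenchymal factor that maintains the ridge, fell from a mean of 9.60 to 5.66 NRPKM (-0.65, adjusted p = 0.048). The FGF target genes Spry4, Dusp6 and Etv4 fell, from 20.2, 72.5 and 26.2 to 12.2, 52.7 and 19.9 NRPKM, whereas Spry1, Spry2 and Etv5 were not called. Fgfr1, the receptor of distal mesenchyme, fell (33.1 to 26.5 NRPKM), while Fgfr2 and Fgfr3, receptors of skeletal condensations, rose from means of 22.5 and 8.00 to 33.4 and 16.5. The calls of Fgf10, Dusp6, Etv4 and Fgfr3 were each lost in at least 3 of the 6 fits with 1 library left out. Over 25 measured FGF pathway genes, 7 were called lower and 5 higher, and without E11.5 control 1 the lower calls were 3. Sall1, Sall3 and Sall4, zinc finger factors needed for limb outgrowth, all fell: Sall3 went from 11.3, 15.3 and 9.92 to 3.88, 5.57 and 3.44 NRPKM (-1.31, SE 0.19, adjusted p = 0.0011), and Sall4 from a mean of 14.4 to 7.05. Bmp2 and Msx2, a signal and a target of the BMP pathway, rose from 13.7 and 17.2 to 23.2 and 24.5 NRPKM, with calls that were lost without E12.5 control 1. The Msx2 call was also lost without E11.5 control 1 or 3 or E12.5 control 3, and under both other scalings.

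Hox genes were mostly lower. Among 17 measured genes of the anterior and axial Hox list, 10 were called lower and 1 higher (median -0.62). The higher gene, Hoxc12, is a posterior gene by its number. Hoxc8 went from 5.17, 6.69 and 5.13 to 1.601, 2.67 and 2.91 NRPKM (-0.99, SE 0.25, adjusted p = 0.018), and Hoxa6 from 18.6, 19.5 and 19.8 to 11.9, 11.3 and 12.51 (-0.66, SE 0.08, adjusted p = 7.4e-04). The stages were apart in both, but the Hoxc8 call was lost without E11.5 control 2 or E12.5 control 1. Hoxd9, Hoxd10 and Hoxd11 fell, by 0.51, 0.38 and 0.57, whereas Hoxd12, Hoxd13, Hoxa11 and Hoxa13, at the distal ends of their clusters, were not called and differed by -0.07, 0.06, -0.05 and -0.06. The Hoxd10 call was lost without E11.5 control 2 or E12.5 control 3. The count of 10 lower anterior and axial genes rested on few libraries: it was 2 without E12.5 control 1, and 1 against E11.5 control 2 alone, although the median stayed at -0.52 there.

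Of the genes that set limb identity, Tbx4 and Pitx1, which mark the hindlimb, fell slightly. Tbx4 went from 52.2, 50.6 and 50.4 to 38.2, 43.1 and 38.2 NRPKM (-0.35, SE 0.06, adjusted p = 0.0021), and Pitx1 went from a mean of 81.0 to 61.6, a gene above 63 NRPKM on average whose call was lost without E11.5 control 1 or 3 or E12.5 control 1 or 3. The forelimb gene Tbx5 was not analysed here. Among proximodistal genes, Meis1 and Meis2, which mark the proximal limb, were not called. Meis1 had 15.2, 6.37 and 10.8 NRPKM at E11.5 and 4.31, 12.1 and 6.46 at E12.5, so that the spread within each stage was wider than the step between them. Aldh1a2, which makes retinoic acid, rose from 26.5 to 43.2 NRPKM, and Cyp26b1, which degrades it, fell from 49.7 to 34.6.

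The Lin28 and let-7 genes are known for timing developmental transitions, and more of them fell than rose. LIN28 proteins block the maturation of the let-7 microRNAs, which in turn repress many of the other genes of the list. Of 17 measured, 10 were called lower and 1 higher (median -0.26), and against E11.5 control 2 alone 4 were lower. Lin28a was at 9.32, 3.56 and 6.67 NRPKM at E11.5 and at 1.42, 2.37 and 1.67 at E12.5, a difference of -1.35 (SE 0.30, adjusted p = 0.0084). Its relative Lin28b went from 33.4, 24.6 and 30.2 to 17.7, 22.4 and 15.6 NRPKM (-0.64, SE 0.17), a call lost without E11.5 control 1 or E12.5 control 1 or 3. Against E11.5 control 2 alone the Lin28a call was lost (adjusted p = 0.16). Trim71, another let-7 target, fell from a mean of 15.7 to 8.71 NRPKM, Hmga2, a chromatin protein of growing embryonic tissue, from 42.1, 40.2 and 35.0 to 24.9, 28.6 and 26.7, and Igf2bp1, an RNA-binding protein, from 55.3 to 39.99. Outside the list, Igdcc3 fell from 35.2, 18.1 and 18.96 to 3.82, 10.1 and 4.35 NRPKM (-1.86, adjusted p = 0.0044). The microRNA gene Mirlet7i was at 1.76, 1.98 and 0.825 NRPKM and then at 3.69, 3.15 and 5.30 (1.01, adjusted p = 0.044), a short gene whose call was lost when any of the 6 libraries was left out.

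The mature let-7i and 1 site in each of 4 of these genes are printed to show the shared seed match. In the microRNA the seed, bases 2 to 8, is in capitals. In the messenger RNA sites, 25 bases each from the longest annotated 3′ untranslated region (GENCODE release 21), the capitals mark CTACCTC, the complement of that seed.
let-7i-5p: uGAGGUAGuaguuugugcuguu
Lin28a: gcacagcctgttgaaCTACCTCatt
Trim71: aacattgcctaagtcCTACCTCagc
Hmga2: gccgacattcaatttCTACCTCagc
Igdcc3: tgtgactctcagcacCTACCTCagc
CTACCTC was present in the 3′ untranslated region of 12 of the 15 protein-coding members, which is part of why such genes are known as let-7 targets, and in 12.1% of the 11556 genes of the table that have one. Over all genes the median difference was 0.05 with the match and 0.07 without it. The match was in 12.0% of the genes called higher and in 12.2% of those called lower.

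**Figure D3:**
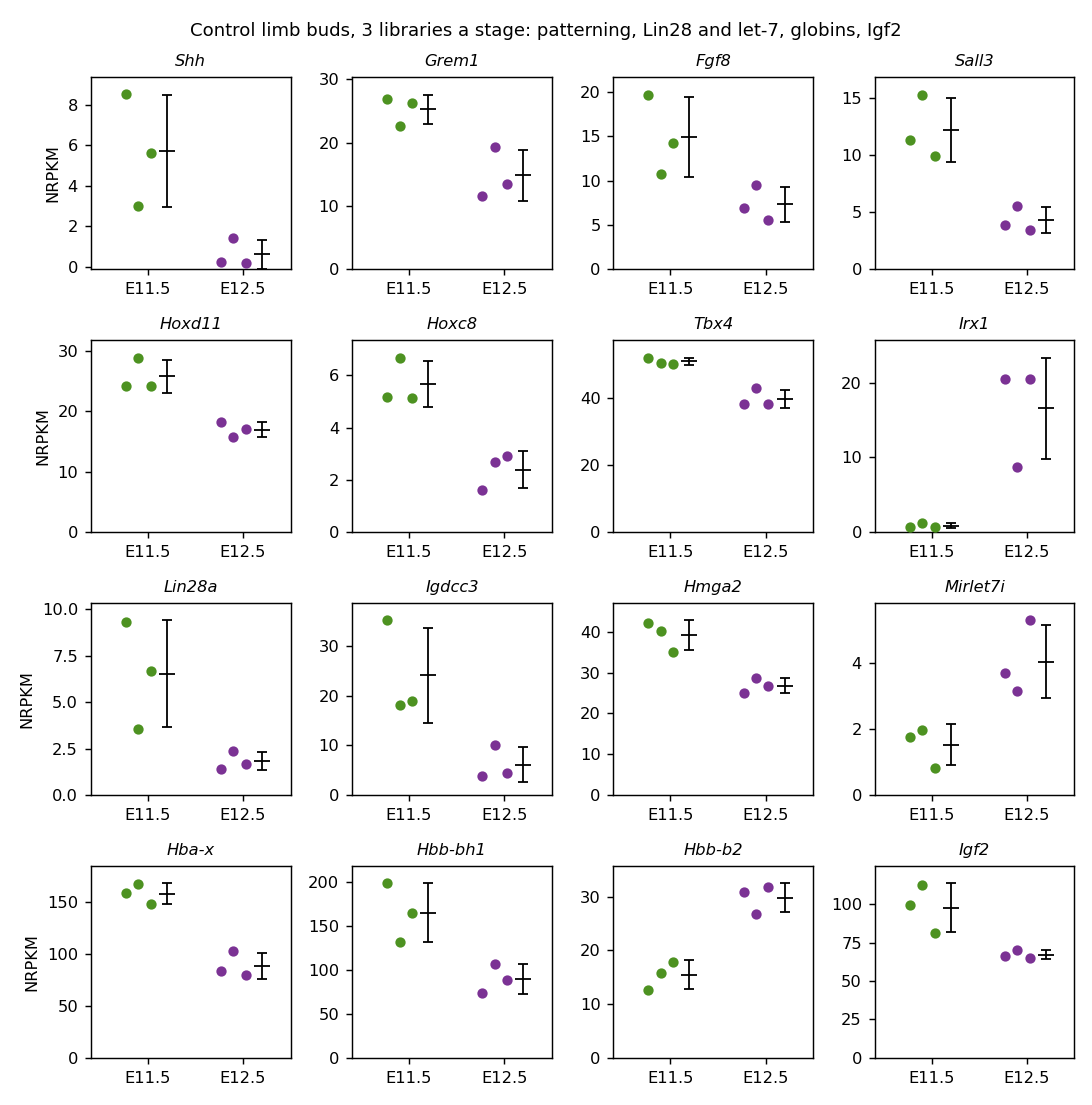
NRPKM (vertical axes) of 16 genes of patterning, developmental timing and blood in the 3 control libraries at each stage (E11.5 green, E12.5 purple), with the mean and SD in black. Shh, Sall3, Lin28a and Igdcc3 are lower in every E12.5 library than in any E11.5 library, and Irx1 is higher.

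Many markers of macrophages and some of nerves were higher. In these bulk samples more cells of a type and more RNA per cell cannot be told apart. Of 21 macrophage and leukocyte genes 13 were called higher and 0 lower (median 0.68), and their summed level was 119 to 136 NRPKM at E11.5 and 176 to 201 at E12.5. C1qa, a complement gene of tissue macrophages, went from 5.19, 3.98 and 5.82 to 13.6, 10.1 and 11.0 NRPKM (1.07, SE 0.31, adjusted p = 0.029), and Emr1, the gene of the macrophage antigen F4/80, from 1.21, 1.55 and 1.83 to 4.99, 3.85 and 4.87 (1.14, SE 0.17, adjusted p = 0.0013). Csf1r, the receptor on which macrophages depend, rose from a mean of 4.5003 to 7.30 NRPKM. The C1qa call was lost without any 1 of the control libraries other than E11.5 control 3 and with sex as a term, and the Csf1r call without E11.5 control 1 or E12.5 control 1 or 3 and under quantile normalization. The macrophage calls thinned to 3 without E12.5 control 1 and to 3 against E11.5 control 2 alone, where the median was 0.72. Of 14 nerve and Schwann cell genes 7 were called higher and 0 lower. Postn, described above with connective tissue, is among the 7. Sox10, Tubb3, Ncam1, Gap43, Stmn2 and Itga4 were not called (0.61, 0.32, 0.32, 0.21, 0.19 and 0.16), nor was Isl1 (-0.25). Nefm, a neurofilament gene of axons, rose from 1.22, 2.50 and 1.58 to 6.11, 4.49 and 6.49 NRPKM, and Erbb3, a receptor of Schwann cell precursors, from a mean of 10.7 to 20.1. The Nefm call was lost without E11.5 control 1 or E12.5 control 1 or 3.

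Blood and vessel lists differed among themselves. Of 35 endothelial genes 4 were called higher and 1, Dll4, lower, a smaller share than the 21.7% of all genes, and Pecam1, Cdh5 and Kdr were not called. Of 8 genes of mural cells, which wrap vessels, 4 were called higher and 0 lower (median 0.49). Tagln was not called (0.54), nor were Pdgfrb, Anpep and Notch3, whose differences were below 0 (-0.17, -0.27 and -0.39). In Pdgfrb and Notch3 every E12.5 value lay below every E11.5 value. Acta2, smooth muscle actin, was at 7.70, 15.2 and 13.8 NRPKM at E11.5 and at 34.1, 30.2 and 34.9 at E12.5, a difference of 1.41 (SE 0.27, adjusted p = 0.0041), Cspg4 and Mcam differed by 0.85 and 0.43 (the Cspg4 call was lost without E11.5 control 1 or E12.5 control 1 or 3), and Des, the other gene called, is also in the muscle list. Of 33 erythroid genes 2 were higher and 2 lower, and under quantile normalization 1 and 8. Single globin genes changed. Hba-x, the embryonic alpha-type globin zeta, fell from 158, 167 and 148 to 83.2, 103 and 79.7 NRPKM (-0.83, SE 0.15, adjusted p = 0.0032), and Hbb-b2, an adult beta globin, rose from 12.6, 15.9 and 17.9 to 30.9, 26.8 and 31.8 (0.91, SE 0.26, adjusted p = 0.026). Hbb-bh1, an embryonic beta-type globin, fell from a mean of 165 to 89.8 NRPKM (adjusted p = 0.047). The calls of Hbb-bh1 and Hbb-b2 were lost in 5 and 4 of the 6 fits with 1 library left out, E12.5 control 1 in both (adjusted p up to 0.33 and 0.13). Hbb-y, the main embryonic beta-type globin, was the most abundant of them at 407 to 475 and 370 to 400 NRPKM and was not called. Its difference, -0.20 as deposited, was 0.66 under quantile normalization. Under that scaling 1 of the 3 embryonic globin genes was called lower, against 2 as deposited, and 1 higher. These genes lie in the range of levels where genes in general were lower. Globin genes are similar in sequence, and how shared reads were counted is not stated by the submitters, so these values are uncertain.

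Several secreted inhibitors of signalling were higher at E12.5. In the BMP and TGF-beta pathway, 19 of 46 genes were called higher and 2 lower. Besides Nog, the antagonist genes Bmper, Fst, Chrdl1 and Chrd rose, from means of 5.14, 6.02, 9.72 and 2.99 to 12.4, 14.3, 17.0 and 4.97 NRPKM, and the Bmper call was lost without E12.5 control 1. Grem1, described above, fell. Among ligands Tgfb2, Bmp2 and Bmp5 rose and Bmp4 was not called (-0.31), and the feedback targets Id1, Id2, Id3 and Smad7 were not called. In the WNT pathway, 16 of 51 were called higher and 2 lower. The secreted inhibitor genes Dkk2, Dkk3 and Wif1 rose from means of 13.2, 7.65 and 21.9 to 28.6, 13.7 and 28.0 NRPKM, and the receptor gene Fzd9 from 2.90 to 9.70, while Axin2 and Lef1, common readouts of the pathway, were not called (0.13 and -0.28). Of 25 Notch genes 6 were called higher, Dll1 and Hey2 among them, and 1 lower, and of 19 hedgehog genes 2 were called in each direction.

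Lists of growth and cell division had medians slightly below 0. Of 45 replication genes 11 were called lower and 0 higher (median -0.12), and of 40 mitotic genes 7 lower and 0 higher (median -0.11). Over all genes 5.19% were called lower and 16.5% higher. Among genes from 31 to 63 NRPKM 11.8% were lower and 3.1% higher, with a median of -0.05. The counts of these lists are read against those shares. Uhrf1, which maintains DNA methylation at replication forks, fell from 56.3, 50.1 and 51.0 to 37.1, 38.5 and 37.7 NRPKM (-0.46, SE 0.06, adjusted p = 6.1e-04), and Top2a, the topoisomerase of dividing cells, from 64.6, 60.8 and 71.1 to 50.5, 53.6 and 53.5, a call lost under quantile normalization. Mki67, Ccnb1 and Pcna were not called (-0.21, -0.16 and -0.42). These lists depended on the E11.5 library: their medians were -0.20 and -0.18 against controls 1 and 3, and 0.03 and 0.04 against control 2 alone. Without E12.5 control 1 the calls were 3 and 2, and after median centring 19 and 21. Of the 81 cytosolic ribosomal protein genes 4 were called lower, about the share of all genes, and 0 higher. They showed the same split between E11.5 libraries, with medians of -0.38 and 0.05, and many share reads with processed copies. Their lower calls were 29 after median centring, 23 under quantile normalization and 1 to 20 with 1 library left out.

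Of 29 imprinted genes 7 were called lower and 3 higher (median -0.03), and without E12.5 control 1 the calls were 4 and 0. Igf2, the main fetal growth factor gene of the list, fell from 99.7, 112 and 81.0 to 66.0, 70.5 and 64.8 NRPKM (-0.52, SE 0.12, adjusted p = 0.010), and Peg10 from a mean of 66.5 to 36.7. Igf2 lies in the range of levels where genes in general were lower, and under quantile normalization it was not called (adjusted p = 0.36). Cdkn1c, a cell cycle inhibitor, was not called (-0.03) but was 0.46 under quantile normalization. Among 35 glycolysis and hypoxia genes, 6 rose and 4 fell, or 5 and 9 after median centring: Pkm, pyruvate kinase, fell from 120, 87.4 and 114 to 67.2, 62.6 and 62.4 NRPKM and Ldha from a mean of 47.4 to 33.8, a call lost in 5 of the 6 fits with 1 library left out, while the prolyl hydroxylase gene P4ha1, needed for collagen, rose from 24.8 to 31.6. Of 25 p53 targets and apoptosis genes, 9 rose and 3 fell (4 to 6 higher with 1 library left out), Trp53 itself among the latter (25.8 to 18.4 NRPKM). Of 25 immediate early and heat shock genes, 9 rose and 2 fell, with Klf4 highest at a difference of 1.08. Such genes are also known to respond to handling of tissue, and their part in other results was not tested.

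**Figure D4:**
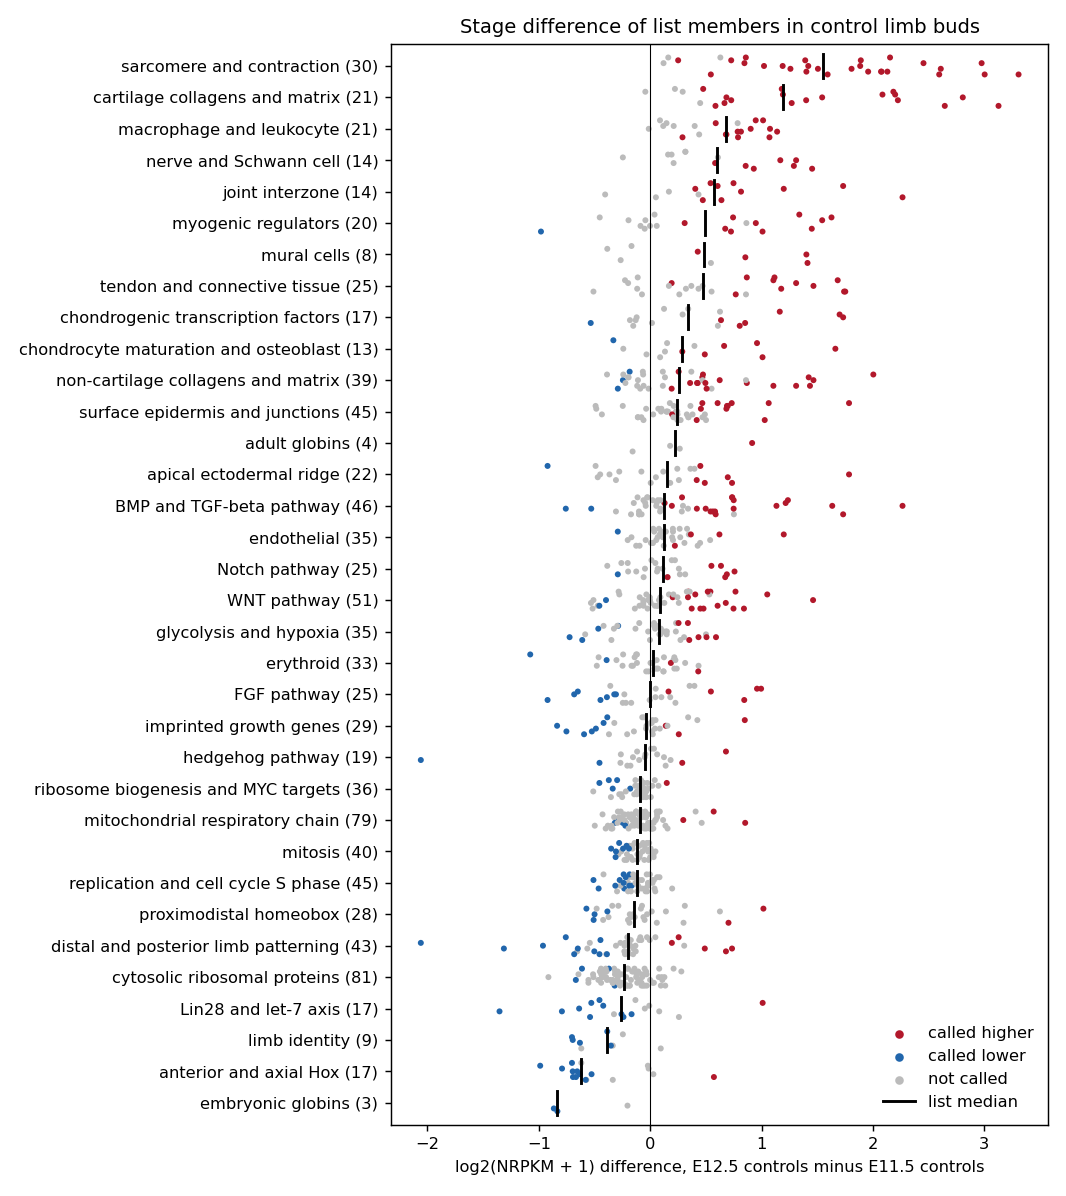
Difference of log2(NRPKM + 1), E12.5 minus E11.5 controls (horizontal axis), of each measured member of 34 gene lists, with called members in colour, the list median as a black bar and the number of measured members in brackets. On the deposited scale sarcomere genes have the highest median of the lists drawn, 1.55, and embryonic globins the lowest, -0.83, while under quantile normalization the globins are at -0.39 and anterior and axial Hox genes at -0.86.

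Over the 38 lists with measured genes, 309 of 951 members were called (32.5%), 209 higher and 100 lower. The genes with the largest changes outside these lists were of mixed kinds. Irx1, an Iroquois homeobox gene expressed in digit cartilage (chr13:71957921-71963723), went from 0.654, 1.21 and 0.704 to 20.5, 8.74 and 20.5 NRPKM (3.17, SE 0.53, adjusted p = 0.0022). Zbtb16, a zinc finger factor of limb patterning, fell from 9.43, 6.26 and 5.70 to 1.73, 3.36 and 1.96 NRPKM (-1.28, SE 0.23, adjusted p = 0.0028). The histone gene Hist1h2ba fell from 6.02, 4.32 and 7.41 to 0.484, 1.15 and 1.18 NRPKM. Mir5105 was the most abundant gene that fell, at 3429, 4204 and 1352 and then at 719, 733 and 551 NRPKM, and AY036118 went from 555, 445 and 362 to 162, 189 and 168.

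Other large changes were of genes listed at 0 or near it. There were 37 genes at 0 in at least 1 control library and at 5 NRPKM or more in another, 14 of them called. Snurf was listed at 0 in the 3 E11.5 controls and at 12.4, 13.1 and 11.53 NRPKM at E12.5, but Sox9null replicates 1 and 2 had 11.2 and 10.8 and replicates 3 and 4 were at 0. Zc3h11a was near 0 but not at 0, and so is not among the 37. It was at 0.261, 0.237 and 0.245 and then at 16.7, 16.9 and 16.8 NRPKM. Sox9null replicates 3 and 4 were at 16.9 and 16.9 and replicates 1 and 2 at 0.244 and 0.263. Values of Snurf and Zc3h11a thus differed between libraries of 1 group, by all or nearly all of their level. Of the 37, 7 were at 5 NRPKM or more throughout 1 E11.5 library set and under 1 throughout the other. Of the 33 such genes in the annotation, 66.7% overlap another gene on the same strand, against 25.1% of all genes. Mir1306 was listed at 0 in all 7 E11.5 libraries and at 6.27, 8.91 and 5.54 NRPKM in the E12.5 controls.

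The same stages were compared in the Sox9-deficient limb buds, where stage and genotype (Sox9null at E11.5, Sox9cKO at E12.5) cannot be told apart either. In them 2539 genes were called between the stages, and 1787 genes were called in both comparisons, 64.0% of the control calls and 70.4% of the others. Of the 2794 genes called in controls, 2766 (99.0%) had the same sign in Sox9-deficient libraries. The share over all genes is not given here. Mir1306, described above, separated the stages in controls and Sox9-deficient libraries alike. Whether the handling of the libraries differed between the stages was not tested. The difference of the 2 changes was called for 4 genes, and 393 had an unadjusted p under 0.05. Sarcomere genes had a median difference of 1.099 there, with 25 of 30 called higher, and cartilage matrix genes one of 0.50, with 11 called higher and 1 lower. Matn1 differed by 0.50 in Sox9-deficient and 3.13 in control limb buds, but the difference of the changes was not called (-2.62, SE 0.54, adjusted p = 0.59). Mia1, a small protein secreted by chondrocytes, was at 1.11, 1.05 and 1.36 NRPKM in E11.5 controls and at 5.597, 4.45 and 6.03 in E12.5 controls, whereas all 7 Sox9-deficient libraries lay from 0.669 to 1.21. Its difference of changes was called (-1.45, SE 0.19, adjusted p = 0.025).

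**Figure D5:**
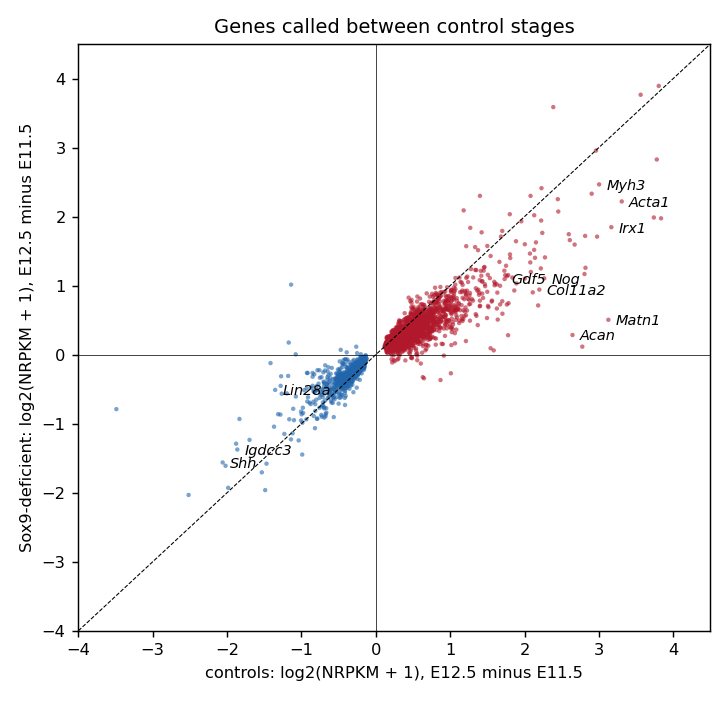
Difference of log2(NRPKM + 1) between the stages in Sox9-deficient libraries (vertical axis) against that in controls (horizontal axis) for the 2794 genes called in controls, coloured by their direction, with the line of equality dashed. Of these genes 2766 have the same sign in both, and Matn1 and Acan lie far below the line.

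Within a stage the libraries kept an order across tissues. E12.5 control 2 had the lowest E12.5 value in 21 of 21 cartilage matrix genes and 29 of 30 sarcomere genes, and in 178 of the 217 genes called higher by at least 1. It was the lowest in 32.1% of all genes tested. E11.5 control 1 had the lowest E11.5 value in 17 of the 21 and 26 of the 30, and in 160 of the 217, against 24.1% of all genes. Among the 35 genes called lower by at least 1, E12.5 control 2 had the highest E12.5 value in 21. Whether the embryos of a stage differed in exact age was not tested.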

How the data were processed

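RNA-seq values of limb buds from 13 embryos came from 1 deposited table. The labels name the RNeasy Mini Kit for total RNA and Illumina libraries. CASAVA 1.8 and the mm10 build are named in the submitters' processing notes. Per the file headers, the authors gave a normalized RPKM for each gene and library, and each gene listed reaches a group mean of 3. Aligner, strand use, annotation, normalization between libraries and depth: not given in the sources used here. Thus no counting error was computed and short genes are the least precise. A gene low in all groups is not listed, so a list's unmeasured members may be low or absent from the table for other reasons. A gene under 3 NRPKM in both E11.5 groups is listed only through an E12.5 group. Counts of higher members are partly set by this rule.

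Columns were assigned by header. Values were fitted as log2(RPKM + 1) with limma 3.58.1 in R 4.3.3 (trend, robust), 4 group means over 13 libraries, two-sided, with Benjamini-Hochberg adjustment over 12880 genes. The contrast was E12.5 minus E11.5 controls. A filter asked for 1 RPKM or more in 3 libraries or more, and every gene passed it. Fold changes on this scale understate low genes. p-values measure the spread between these embryos. The fit was tested on simulated data. The members and the 40 gene lists were chosen with earlier results of these data known, and named genes were the 12 largest rises and falls without overlap, up to 4 members of each list, and others picked after their values were seen. Coordinates are from GENCODE release 21 (GRCm38, 12715 of 12880 identifiers), and promoters and microRNA from RefSeq (GRCm38.p6). Alternatives were the pseudocount, filter, scaling, moderation, replicate block, sex, and left-out libraries. A term for the library set and a fit on protein-coding genes were added after seeing the data.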

Additional observations from a re-analysis of the deposited data

Results flagged for a closer look

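The change from E11.5 to E12.5 differed between control and Sox9-deficient limb buds, by the interaction term of limma, for 2 genes that were called in controls. Mia1 changed by 1.54 in controls and 0.09 in Sox9-deficient libraries, a difference of -1.45 (SE 0.19, adjusted p = 0.025), on log2(NRPKM + 1). Gm11681, a long non-coding RNA gene (chr11:112792731-112799008, minus strand) that lies next to Sox9 (chr11:112782224-112787760), was at 7.96, 15.6 and 10.5 NRPKM in the E11.5 controls, which carry 1 null allele, and at 0, 0 and 0.201 in the E12.5 controls, which carry none. In Sox9null it was at 16.0 to 25.2 and in Sox9cKO at 8.43 to 14.98. Its difference of changes was 2.70 (SE 0.35, adjusted p = 0.025). Within each stage every Sox9-deficient value lay above every control value. Between the control stages genotype and stage cannot be told apart, and the cause of either difference was not tested.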

How the results depend on the processing

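Of the 160 called genes named by rule, 105 kept their call with each control library left out in turn. Leaving out 1 library gave 1379 to 2520 called genes (1103 to 2010 higher, 276 to 725 lower) and 191 to 313 called list members. Same-numbered libraries did not deviate together (correlations -0.05, -0.15 and -0.02), and a replicate block gave 1968 higher and 636 lower. The 6 controls alone with the block gave 1629 calls, 1280 higher and 349 lower. With E11.5 control 2 alone the counts were 1559, 1303 and 256, with 156 list members, and, with a term for the 2 sets of E11.5 libraries, 7132, 4893 and 2239, with 562. Lower calls were 1539 after median centring and 1187 after quantile normalization. A pseudocount of 3 left 116 differences of at least 1. With sex as a term 1671 genes were higher and 760 lower. The 4 calls of a difference between control and Sox9-deficient changes became 2 with a pseudocount of 0.1, 0 at a mean of at least 5 NRPKM, 2 after median centring, and 1 with the replicate block, with E11.5 control 2 alone or with protein-coding genes only, and 1 to 4 with 1 library left out. Under quantile normalization Cdkn1c (0.46), Mcm6 (0.27), Hbb-y (0.66) and Ctnnb1 (0.029) reversed. The cause was not tested. Sequencing depth is unknown, so counting error was not computed.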

Other observations

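Some gene families that no list held are described here by their full set of measured symbols. They were chosen after their values were seen, so their counts carry no test of the family. Of the 6 Iroquois homeobox genes, Irx1, Irx2, Irx4 and Irx6 were called higher, and under quantile normalization 3, without Irx6. Irx2 went from 3.87, 2.72 and 2.96 to 10.2, 7.09 and 12.3 NRPKM, and Irx6 from 1.38, 0.626 and 0.909 to 3.14, 3.00 and 3.60. Irx3, with 23.1, 6.64 and 15.9 NRPKM at E11.5 and 4.85, 17.1 and 8.08 at E12.5, and Irx5 were not called, and in both the spread within a stage was wider than the step. Enzymes that build and sulphate chondroitin and heparan chains also rose: 16 of 26 were called higher and 0 lower (median 0.38). Extl1, a glycosyltransferase of heparan sulphate, went from 0.959, 1.47 and 1.498 to 8.13, 5.26 and 7.56 NRPKM (1.78, SE 0.16, adjusted p = 1.5e-04), and Csgalnact1, which starts chondroitin chains, from a mean of 1.28 to 5.67. Adamts5, a protease that cuts aggrecan, rose from 1.92, 3.25 and 2.45 to 9.77, 5.59 and 10.0 NRPKM.

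Of 18 Hnrnp genes, which package and splice nuclear RNA, 13 were called lower and 0 higher (median -0.39), with a median E11.5 level of 47.8 NRPKM. Hnrnpa2b1 went from 111, 96.4 and 105 to 70.6, 69.0 and 72.3 NRPKM (-0.55, SE 0.07, adjusted p = 5.6e-04). Under quantile normalization Hnrnpa2b1 was not called (adjusted p = 0.057), 10 of the 18 were called lower and the median was -0.22. Of 324 Zfp zinc finger genes, at a median E11.5 level of 13.7 NRPKM, 71 were called higher and 4 lower (median 0.16), and 41 and 8 under quantile normalization. Of all 3556 genes from 7 to 15 NRPKM, 20.6% were called higher and 2.6% lower (median 0.115). The count of the Zfp genes is therefore read against the shares at their level.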
